A study of Mus musculus with 8 samples.

Results

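The genes described here are the meiotic chromosome and recombination genes of the mouse: those of the synaptonemal complex, the meiotic cohesins, the break, repair and crossover machinery, telomere attachment, and a few regulators of germ cell meiosis. They were taken from a list of 37 names, of which 35 name a gene in all 5 libraries, out of 21352 genes. Sycp2l and Iho1 were not analysed here under those names. RefSeq gives Ccdc36 as an older name of Iho1, and the values listed under Ccdc36 are given once below without counting it as a member. All 35 members lie on autosomes, among 20368 autosomal genes.

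The reads come from low-input CUT&RUN, in which a nuclease tethered to an antibody cuts out the DNA around the antibody's target, and the freed fragments are sequenced. The cells were primordial germ cells, the embryonic precursors of eggs and sperm, sorted from pooled embryos of a B6 x Cast cross that carried an Oct4-eGFP reporter (genotype +/-). H3K27me3 was profiled in females (Xist KO/+) at E12.5 and at E11.5. The background antibody, IgG, was used in males (Xist KO/Y) at E11.5 and in females (Xist KO/+) at E12.5 and at E13.5. All of these embryos therefore carried an Xist knockout allele, Xist being the RNA that silences an X chromosome. Each group had 1 library with a file, and 3 further samples, labelled as second replicates of H3K27me3, were not analysed here. With nothing to measure the spread between libraries, values are given without p-values. Intervals cover counting error only, and they are too narrow if PCR copies of 1 molecule were counted more than once. The E11.5 comparison sets female H3K27me3 against male IgG, so sex and antibody cannot be told apart there.

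H3K27me3 is a repressive histone mark that the Polycomb system writes, and it covers silent developmental genes, often together with their neighbours. In meiosis, homologous chromosomes are broken on purpose, paired along a protein axis, zipped together by the synaptonemal complex and joined by crossovers. Female germ cells of the mouse enter this programme in the fetal ovary soon after the stages at which H3K27me3 was profiled here. Most genes of the programme are silent in somatic cells, where DNA methylation and other repressors at their promoters are known to hold them off.

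Reads were counted over whole genes, so a mark limited to a promoter is averaged with the gene body. A gene's level is its reads on both alleles per 1000000 autosomal reads (CPM). The libraries held 5020062 (H3K27me3 E12.5), 2356356 (H3K27me3 E11.5), 1357583 (IgG E11.5), 1515532 (IgG E12.5) and 5705401 (IgG E13.5) autosomal reads, of which the members took 6886, 3175, 1932, 1761 and 8845 in the same order. Of 15 tested developmental genes known as Polycomb targets, 15 were at least 2-fold over IgG at both stages, with median log2 ratios of 2.34 at E12.5 and 3.15 at E11.5. Housekeeping genes had medians of -1.08 (9 tested) and -1.16 (7 tested), and none of them was 2-fold over IgG. Among germ cell genes such as Ddx4 and Nanos3, 0 of 9 tested at E12.5 and 0 of 5 at E11.5 were 2-fold over IgG. All 4 tested markers of granulosa or Sertoli cells were over 2-fold at both stages. Of the blood and endothelial markers, Tal1 was over 2-fold, 1 of 4 tested at E12.5 and 1 of 3 at E11.5. The H3K27me3 signal of these marker genes does not measure how many other cells the sort let through, which was not tested.

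At E12.5, 5 of the 32 members tested were at least 2-fold over IgG E12.5, where 15.2% of all autosomal genes were, and 5 were at least 2-fold lower, where 29.5% of all genes were. Testing needed 20 reads or more across the H3K27me3 and IgG library together, and the log2 ratio carries a pseudocount of 1 CPM. Folds given with intervals carry no pseudocount, so they lie further from 1 than the log2 ratio of the same gene. Calls at 2-fold used the log2 ratio. The members over 2-fold were Rad21l, Spata22, Meioc, Mei1 and Syce3, and those under were Hormad2, Rec8, Mlh3, Spo11 and Tex14. The median of the members was -0.37, against -0.54 over all autosomal genes. That order turns with the control: over IgG E13.5 the medians were -0.44 for members and -0.41 for all genes, and over the 3 IgG libraries summed -0.53 and -0.47. The share of members over 2-fold was close to that of all genes. The share lower, 15.6% of members, was below that of all genes over IgG E12.5, and with the summed IgG it was 24.2% against 25.7%.

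At E11.5, 7 of 32 were at least 2-fold over IgG E11.5 (17.2% of all genes) and 10 were at least 2-fold lower (29.7% of all genes). Rad21l, Mei1, Meioc and Syce3 were again over 2-fold, now with Prdm9, Msh5 and Rnf212. The medians were -0.45 over members and -0.49 over all genes, and over IgG E13.5 they were -0.65 and -0.44. As shares of the members, 21.9% were higher and 31.2% lower, both near those of all genes. Because most genes lie below 0 on this scale, centring each comparison on the median of all its genes changes the split. At E12.5 it gave 10 members higher and 0 lower, with 25.5% and 4.71% of all genes. At E11.5 it gave 10 higher and 2 lower, with 24.8% and 7.38% of all genes. TMM factors of H3K27me3 over IgG were -0.53 and -0.49 on the log2 scale, and scaling with them raised the ratios. With TMM scaling, 10 members were higher and 0 lower at E12.5 (24.9% and 6.03% of all genes). At E11.5 it gave 9 higher and 3 lower (24.5% and 8.53% of all genes). A log2 ratio near -1 is therefore the level of the housekeeping genes, and a ratio near 0 lies above the median gene.

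**Figure D1:**
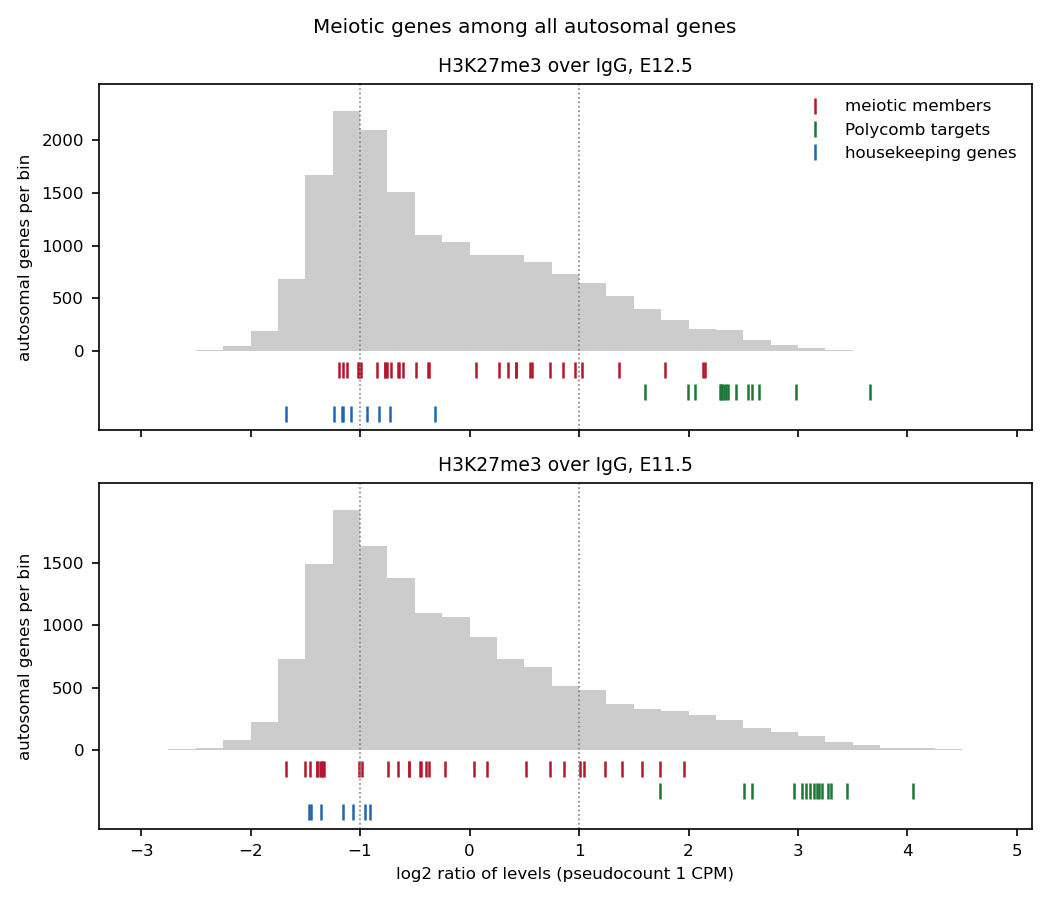
Histograms of the log2 ratio of H3K27me3 over IgG of the same stage for all autosomal genes (grey bars, genes per bin), at E12.5 above and E11.5 below, with ticks for single members, Polycomb targets and housekeeping genes and dotted lines at 2-fold. The members spread over the range of all genes, from -1.19 to 2.15 at E12.5, while the Polycomb targets sit above 1 and the housekeeping genes below 0.

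Over both stages, 4 of 32 members were at least 2-fold over the IgG library of their own stage (Rad21l, Mei1, Meioc and Syce3), against 11.9% of all genes. Against each of the 3 IgG libraries at both stages, 3 members were over 2-fold (Rad21l, Mei1 and Meioc; 10.9% of all genes) and 3 were under (Hormad2, Mlh3 and Tex14; 9.19% of all genes). Those under in both stages over their own IgG were Spo11, Hormad2, Mlh3 and Tex14 (17.6% of all genes). With the 3 IgG libraries summed as control, 7 of 33 members were over 2-fold at E12.5 (14.5% of all genes) and 7 at E11.5 (15.4%). Those 7 were the same genes at both stages: Rad21l, Mei1, Meioc, Prdm9, Rnf212, Spata22 and Syce3. Since both stages then share their control, this is not a second independent count. The summed IgG adds raw reads, and IgG E13.5 gave most of them (5705401 autosomal reads, against 1357583 at E11.5 and 1515532 at E12.5). Lower than the summed IgG were 8 members at E12.5 (25.7% of all genes) and 11 at E11.5 (28.3%).

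**Figure D2:**
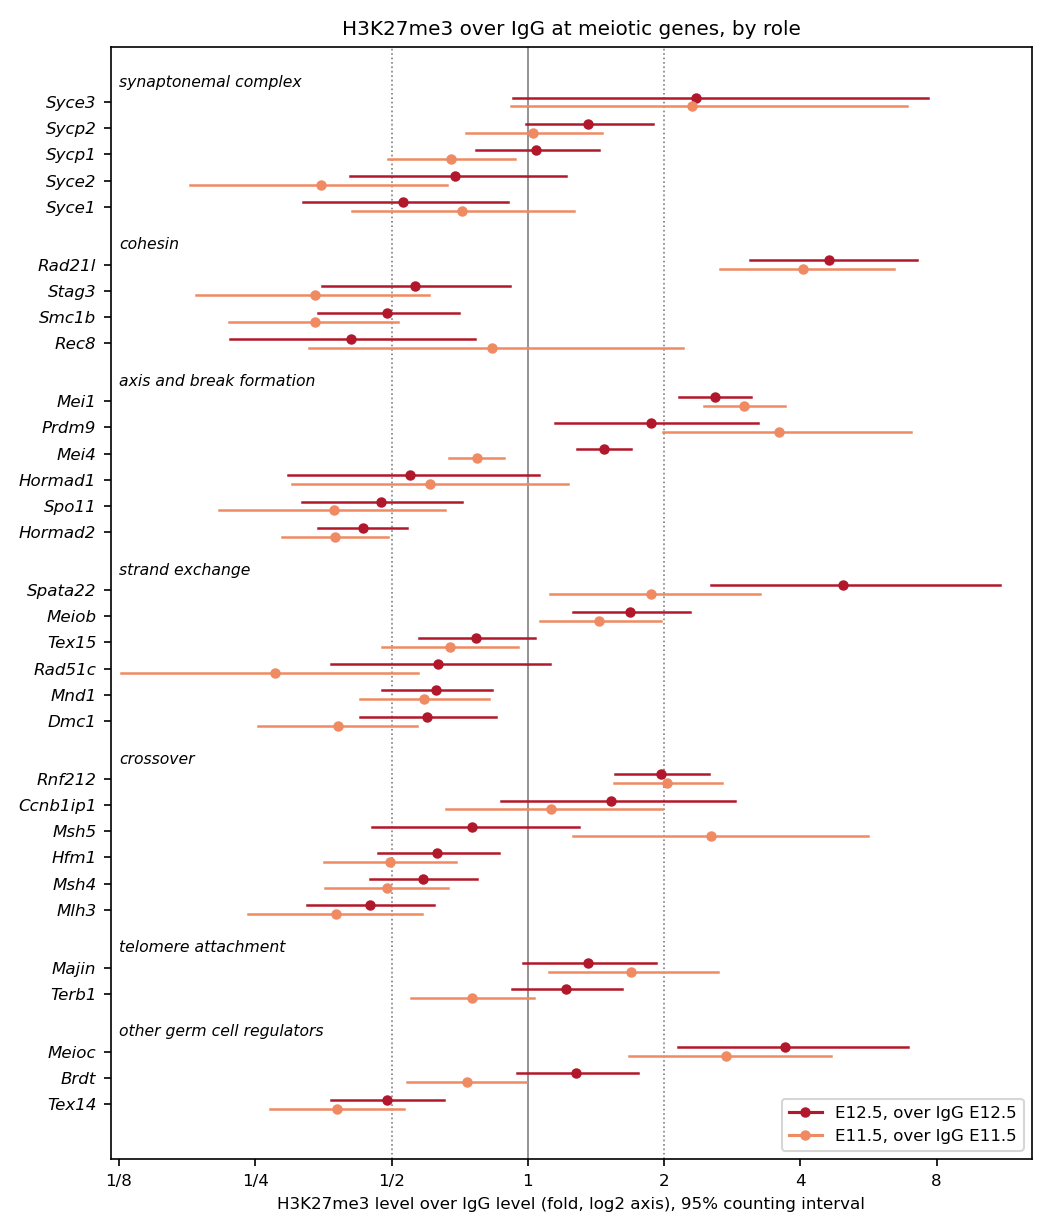
Fold of the H3K27me3 level over the IgG level of the same stage for the 32 members tested, grouped by role, on a log2 axis, with E12.5 above E11.5 in each row, exact 95% counting intervals as bars and dotted lines at 2-fold either way. Rad21l, Mei1, Meioc and Syce3 stand right of the 2-fold line at both stages, and their roles each hold members left of it. The folds carry no pseudocount, and the intervals of Syce3 include 1 at both stages.

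The 4 meiosis-specific cohesin subunits, which hold sister chromatids together and form the base of the chromosome axis, held the highest member and others well below IgG. Rad21l, a kleisin subunit of the ring, had a level of 76.5 CPM in H3K27me3 at E12.5 and 74.7 at E11.5, against 18.4, 16.5 and 27.9 in IgG at E11.5, E12.5 and E13.5. Both H3K27me3 libraries lay above all 3 IgG libraries. Rad21l was 4.64-fold over IgG E12.5 (95% interval 3.09 to 7.26) and 4.06-fold over IgG E11.5 at E11.5 (2.66 to 6.44). Its log2 ratio of 2.15 at E12.5 was the highest of the members, at the 97.0 percentile of all genes tested.

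Smc1b, the meiotic SMC subunit, had 17.1 and 15.7 CPM in H3K27me3 at E12.5 and E11.5, against 46.4, 34.97 and 62.0 in IgG at E11.5, E12.5 and E13.5. For Stag3, the meiotic STAG subunit, the levels were 10.8 and 8.49 in H3K27me3 at E12.5 and E11.5, against 25.04, 19.1 and 23.1 in the IgG libraries of E11.5, E12.5 and E13.5. Both genes lay below every IgG library in both H3K27me3 libraries, with log2 ratios of -0.99 and -1.51 for Smc1b and -0.78 and -1.46 for Stag3 at E12.5 and E11.5. Smc1b and Stag3 each overlap other genes (Fam118a, and Gal3st4 with Gpc2), and since no source states that strand was used, reads in the overlap cannot be told apart. Rec8, the other kleisin, had 5.38 and 5.52 CPM in H3K27me3 at E12.5 and E11.5, against 6.63, 13.2 and 6.49 in IgG at E11.5, E12.5 and E13.5. Its log2 ratio was -1.15 at E12.5 and -0.23 at E11.5 over the IgG of the stage, from 27 reads in H3K27me3 E12.5 and 20 in IgG E12.5. The call of Rec8 rests on IgG E12.5 alone, since with the summed IgG the ratio was -0.45 at E12.5. At E11.5 Rec8 was 0.832-fold of IgG E11.5, from 13 reads in H3K27me3 and 9 in IgG, with an interval that includes 1 (0.329 to 2.21). Among the cohesin genes, then, 1 was over 2-fold at both stages. The other 3 had values below their IgG level at both stages, which for Rec8 at E11.5 was within counting error.

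The sequences upstream of these cohesin genes are shown because the marked gene and the others differ in CG content. Whether CG content bears on the mark at these genes was not tested. Each run is the 250 bases before the RefSeq transcript start (GRCm38.p6), 5′ to 3′ on the gene's strand, with CG dinucleotides in capitals. Rad21l (chr2:151668534-151668783, minus strand) holds 1 CG, Smc1b (chr15:85131958-85132207, minus strand) 25, Stag3 (chr5:138280259-138280508, plus strand) 26 and Rec8 (chr14:55617916-55618165, plus strand) 10.
Rad21l: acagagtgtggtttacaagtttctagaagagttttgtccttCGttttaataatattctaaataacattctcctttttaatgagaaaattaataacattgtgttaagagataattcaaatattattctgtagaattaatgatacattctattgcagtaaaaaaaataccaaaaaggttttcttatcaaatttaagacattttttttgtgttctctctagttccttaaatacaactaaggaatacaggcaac
Smc1b: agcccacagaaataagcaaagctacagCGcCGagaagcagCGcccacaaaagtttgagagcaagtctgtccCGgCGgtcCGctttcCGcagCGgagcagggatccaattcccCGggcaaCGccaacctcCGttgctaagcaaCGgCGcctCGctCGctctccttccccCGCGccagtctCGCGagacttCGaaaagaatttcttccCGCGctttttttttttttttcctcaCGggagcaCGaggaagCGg
Stag3: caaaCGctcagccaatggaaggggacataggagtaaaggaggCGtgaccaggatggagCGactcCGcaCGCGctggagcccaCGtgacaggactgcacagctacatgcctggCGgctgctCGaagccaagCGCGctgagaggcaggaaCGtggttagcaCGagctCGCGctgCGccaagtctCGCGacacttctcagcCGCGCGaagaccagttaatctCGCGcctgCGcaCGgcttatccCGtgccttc
Rec8: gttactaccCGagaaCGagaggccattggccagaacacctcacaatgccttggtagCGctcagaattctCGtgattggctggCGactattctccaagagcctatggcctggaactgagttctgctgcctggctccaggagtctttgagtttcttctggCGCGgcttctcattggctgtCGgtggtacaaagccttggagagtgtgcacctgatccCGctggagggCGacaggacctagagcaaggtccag

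From 250 bases before to 50 after the start, the observed over expected CG ratio was 0.317 for Rad21l, 1.08 for Smc1b, 1.06 for Stag3 and 0.716 for Rec8. The Rad21l promoter was the poorest in CG of the 4, and its gene the one with the high H3K27me3 level. The starts used for Rad21l and Stag3 lie inside the genes' RefSeq spans (chr2:151644366-151670622 and chr5:138272514-138312397). Those spans are longer than the 23130 and 32154 bases given with the counts for these genes. The Rec8 start also lies inside its span (chr14:55618002-55625395). Which start is used in germ cells was not tested, so the CG contrast holds for the starts shown.

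Of the synaptonemal complex genes, which build the zipper between paired chromosomes, 1 of 5 tested was over 2-fold at each stage. Of all genes, 15.2% were at E12.5 and 17.2% at E11.5. Syce3, a central element protein, had 7.77 and 10.2 CPM in H3K27me3 at E12.5 and E11.5, against 4.42, 3.30 and 3.15 in IgG at E11.5, E12.5 and E13.5. These levels rest on 39 and 24 reads in H3K27me3, against 6, 5 and 18 reads in IgG. Its log2 ratios of 1.03 and 1.05 at E12.5 and E11.5 just passed 2-fold, and the counting intervals of both folds include 1 (0.927 to 7.65 and 0.918 to 6.89). Sycp1, the transverse filament, had 37.8 and 36.9 CPM in H3K27me3 at E12.5 and E11.5, against 54.5, 36.3 and 59.9 in IgG at E11.5, E12.5 and E13.5. Sycp1 was level with IgG E12.5 (log2 ratio 0.06) and below IgG E11.5 (-0.55).

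Sycp3, an axial element protein and the usual marker of meiotic prophase, and Tex12, of the central element, had 0 reads in all 5 libraries, and each overlaps another gene (Chpt1 and Il18). A count of 0 allows up to 3 reads, or 0.598 CPM in H3K27me3 E12.5 and 1.27 in H3K27me3 E11.5, and the zeros in the IgG libraries mean that no statement on the mark can be made for either gene. Sycp2, the partner of Sycp3, had log2 ratios of 0.43 and 0.04 at E12.5 and E11.5. The central element genes Syce1 (-0.84 and -0.46) and Syce2 (-0.49 and -1.40) had values below the IgG of the stage at both stages. The counting intervals of the fold include 1 for Syce1 at E11.5 (0.408 to 1.26) and Syce2 at E12.5 (0.405 to 1.21). Over IgG E13.5, Syce1 had a log2 ratio of 0.09 at E11.5. Syce2, with 48 and 17 reads in H3K27me3, overlaps Gcdh.

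Break formation depends on Spo11, the enzyme that cuts the DNA, and on partners that sit on the axis. Mei1, which is required for these breaks, had the deepest reads among the marked members: 1157 and 594 in H3K27me3 at E12.5 and E11.5, against 114, 135 and 412 in IgG at E11.5, E12.5 and E13.5. Its levels were 230 and 252 CPM in H3K27me3 at E12.5 and E11.5, against 84.0, 89.1 and 72.2 in IgG at E11.5, E12.5 and E13.5. Both H3K27me3 levels exceeded every IgG level. Mei1 was 2.59-fold over IgG at E12.5 (95% interval 2.16 to 3.12) and 3.002-fold at E11.5 (2.45 to 3.70), and neither interval reached down to 2-fold.

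Prdm9, the histone methyltransferase that chooses where breaks fall, had 23.5 and 34.4 CPM in H3K27me3 at E12.5 and E11.5, against 9.58, 12.54 and 9.64 in IgG at E11.5, E12.5 and E13.5. Both H3K27me3 libraries again lay above all 3 IgG libraries. The ratio passed 2-fold at E11.5 (log2 1.74, 3.59-fold, 95% interval 1.99 to 7.03) and not at E12.5 over IgG E12.5 (0.86, 1.87-fold, 1.15 to 3.22). With the summed IgG it passed at both stages, with log2 ratios of 1.14 and 1.67 at E12.5 and E11.5.

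Spo11 itself had 13.1 and 9.34 CPM in H3K27me3 at E12.5 and E11.5, against 25.04, 27.7 and 23.5 in IgG at E11.5, E12.5 and E13.5. Hormad2, an axis protein that monitors unpaired chromosomes, had 38.4 and 39.0 in H3K27me3 at E12.5 and E11.5, against 104, 89.1 and 109 in IgG at E11.5, E12.5 and E13.5. Both were below all IgG libraries. The log2 ratios at E12.5 and E11.5 were -1.02 and -1.33 for Spo11 and -1.19 and -1.39 for Hormad2. Hormad1, the other HORMA-domain axis protein, had -0.77 and -0.65 over the IgG of each stage. IgG E13.5 held 2.17-fold the level of Hormad1 in IgG E12.5, and with the summed IgG its ratio was -1.57 at E12.5. Mei4, another protein needed for breaks, was the 1 member whose intervals excluded 1 in opposite directions, at 1.47-fold over IgG E12.5 (1.28 to 1.69) and 0.771-fold of IgG E11.5 at E11.5 (0.670 to 0.888). Its IgG levels themselves ranged from 165 CPM at E12.5 to 312 at E13.5. Ccdc36, the name under which RefSeq places Iho1, had log2 ratios of -0.08 at E12.5 and -0.85 at E11.5.

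**Figure D3:**
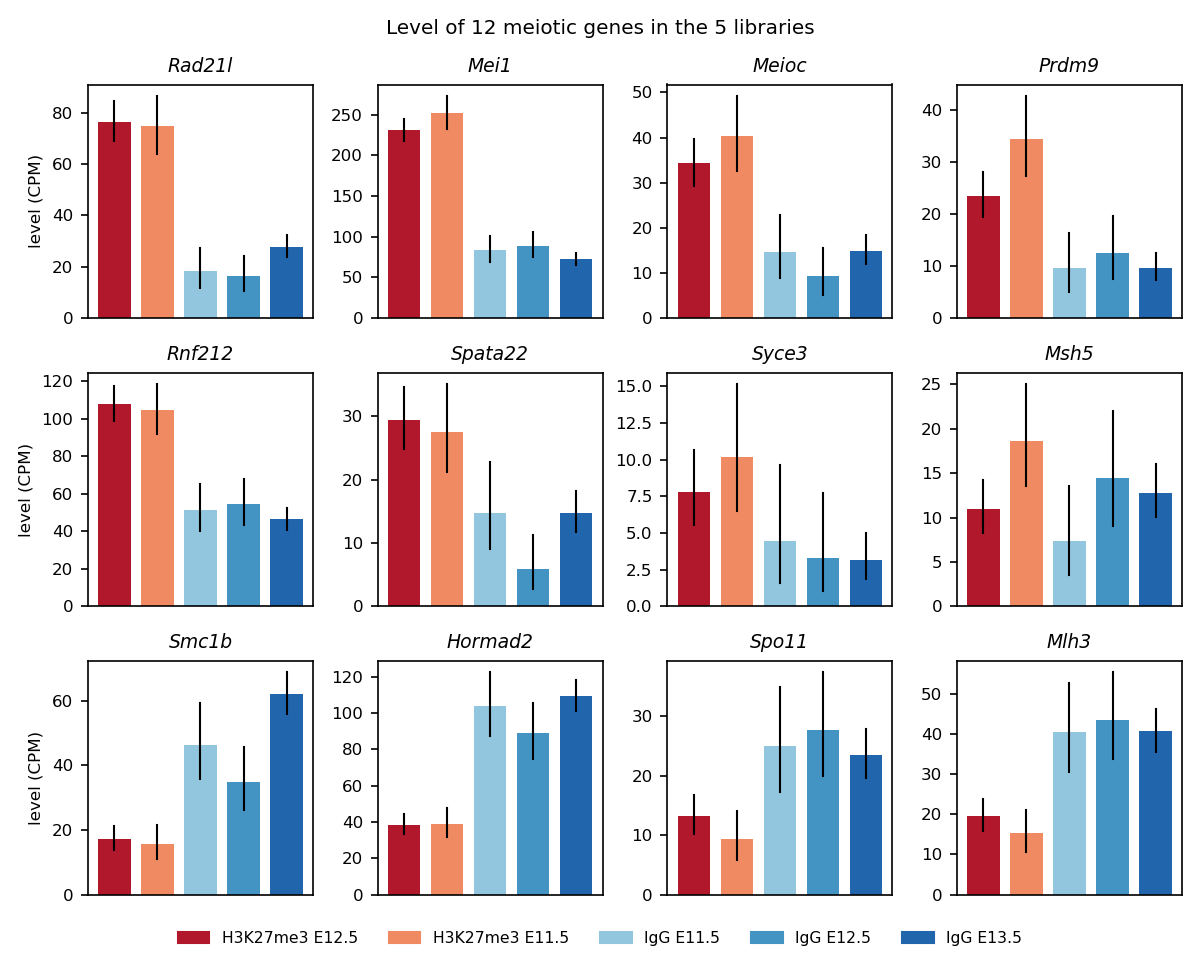
Levels in CPM (each panel with its own axis from 0) of 12 members in the 2 H3K27me3 libraries (red, left) and the 3 IgG libraries (blue, right), with exact 95% Poisson intervals of the counts as lines. Both H3K27me3 bars stand above all 3 IgG bars for Rad21l, Mei1, Meioc, Prdm9, Rnf212, Spata22 and Syce3, Msh5 is mixed, and in the bottom row both stand below.

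After a break, DNA ends are coated and exchanged between homologs. Spata22, which works as a pair with Meiob on single-stranded DNA, had 29.5 and 27.6 CPM in H3K27me3 at E12.5 and E11.5, against 14.7, 5.94 and 14.7 in IgG at E11.5, E12.5 and E13.5. Its IgG E12.5 level rests on 9 reads and was below the other IgG libraries. Over IgG E12.5 Spata22 was 4.96-fold (2.55 to 11.1, log2 2.14) at E12.5, while over the summed IgG its log2 ratio was 1.10, and over IgG E11.5 it was 0.86 at E11.5. Spata22 also overlaps Aspa, which had a log2 ratio of 1.112 over the summed IgG at E12.5. Meiob had 0.73 and 0.52 at E12.5 and E11.5 (1.68-fold, 1.26 to 2.28, and 1.44-fold, 1.07 to 1.97), short of 2-fold with intervals above 1, and it overlaps Hagh.

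The recombinase Dmc1, which carries out strand exchange in meiosis, had 20.9 and 18.2 CPM in H3K27me3 at E12.5 and E11.5, against 47.9, 34.97 and 48.6 in IgG at E11.5, E12.5 and E13.5. Dmc1 was below all IgG libraries, with log2 ratios of -0.71 and -1.34 at E12.5 and E11.5. Mnd1, a cofactor of Dmc1, had -0.66 and -0.74. Tex15, a germ cell protein needed for break repair in male mice, had -0.37 and -0.56. Rad51c, a DNA repair gene that also acts in somatic cells, had -0.61 and -1.67, the second from 12 reads in H3K27me3 E11.5. Psmc3ip, the partner of Mnd1, had 11 and 3 reads in H3K27me3 at E12.5 and E11.5 and was tested only against the summed IgG and IgG E13.5.

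Of the 6 crossover genes, 0 were over 2-fold at E12.5 (15.2% of all genes) and 2 at E11.5 (17.2%), over the IgG of the stage. Rnf212, a ligase that stabilises recombination intermediates, had 108 and 105 CPM in H3K27me3 at E12.5 and E11.5, against 51.6, 54.8 and 46.4 in IgG at E11.5, E12.5 and E13.5. Its levels were close to 2-fold over every IgG library, at 1.97-fold (1.56 to 2.51) over IgG E12.5 at E12.5 and 2.03-fold (1.55 to 2.69) over IgG E11.5 at E11.5. So Rnf212 was on either side of the threshold with nearly the same value. Msh5, which with Msh4 forms a clamp on recombination intermediates, had 10.96 and 18.7 CPM in H3K27me3 at E12.5 and E11.5, against 7.37, 14.5 and 12.8 in IgG at E11.5, E12.5 and E13.5. Its log2 ratio was -0.38 at E12.5 and 1.23 at E11.5. The E11.5 value rests on 10 reads in IgG E11.5, and over the summed IgG it was 0.57.

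Mlh3, part of the nuclease that resolves crossovers, had 19.5 and 15.3 CPM in H3K27me3 at E12.5 and E11.5, against 40.5, 43.5 and 40.7 in IgG at E11.5, E12.5 and E13.5. Its log2 ratios were -1.12 and -1.35 at E12.5 and E11.5, below 2-fold at both stages. Msh4 (-0.75 and -1.01) and the helicase gene Hfm1 (-0.64 and -0.98) were also below IgG at both stages. Ccnb1ip1, a ligase that acts after Rnf212, had 15.1 and 18.2 CPM in H3K27me3 at E12.5 and E11.5, against 16.2, 9.90 and 18.1 in IgG at E11.5, E12.5 and E13.5, with log2 ratios of 0.57 and 0.16. The genes that tie telomeres to the nuclear envelope had log2 ratios of 0.43 and 0.73 (Majin) and 0.27 and -0.40 (Terb1) at E12.5 and E11.5.

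Meioc, which with the helicase Ythdc2 lets germ cells stay in meiotic prophase, had 34.3 and 40.3 CPM in H3K27me3 at E12.5 and E11.5, against 14.7, 9.24 and 14.9 in IgG at E11.5, E12.5 and E13.5. Both H3K27me3 libraries lay above all IgG libraries. Meioc was 3.71-fold over IgG at E12.5 (2.15 to 6.93) and 2.74-fold at E11.5 (1.68 to 4.68). Unlike Rad21l, its promoter is rich in CG, with 22 CG in the 250 bases shown (chr11:102665335-102665584, plus strand, GRCm38.p6, CG in capitals) and an observed over expected ratio of 0.805. A low CG content at the starts used was thus not shared by the 3 members over 2-fold against every IgG library. The starts used for Mei1 (ratio 0.491) and Meioc lie inside their RefSeq spans as well (chr15:82070074-82126817 and chr11:102665351-102682240).
Meioc: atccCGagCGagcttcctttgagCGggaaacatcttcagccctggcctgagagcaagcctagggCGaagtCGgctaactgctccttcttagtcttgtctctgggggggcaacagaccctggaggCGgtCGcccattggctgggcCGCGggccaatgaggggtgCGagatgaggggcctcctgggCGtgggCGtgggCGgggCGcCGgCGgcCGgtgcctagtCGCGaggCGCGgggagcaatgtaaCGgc

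Tex14, a protein of the bridges between germ cells, had 26.1 and 25.5 CPM in H3K27me3 at E12.5 and E11.5, against 67.0, 53.4 and 67.7 in IgG at E11.5, E12.5 and E13.5. Its log2 ratios were -1.01 and -1.36 at E12.5 and E11.5. Brdt, a testis protein that binds acetylated histones, had 0.35 and -0.44. Of the other germ cell regulators, Meioc alone was over 2-fold.

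Promoter sequences of RefSeq (GRCm38.p6) matched 31 of the 35 members, with 37 starts. Their median observed over expected CG ratio was 0.713, against 0.384 over the 32851 promoters of the table and 0.606 over promoters of the autosomal genes counted here. The letters TCCCGC, searched with their reverse complement GCGGGA because E2F6, a repressor of meiotic genes in somatic cells, binds such a core, stood in 25 of 37 member promoters (67.6%), against 19.98% of all promoters and 27.1% of those of the autosomal genes counted here. Among promoters with a CG ratio of at least 0.6, the shares were 84.6% of 26 member promoters and 43.1% of all. The letters CACGTG, its own reverse complement and the E-box core bound by the Mga and Max pair, stood in 9 of the 37 (24.3%), against 7.15% and 8.09% of the same sets. In the promoters of the 7 members over 2-fold against the summed IgG at E12.5 (9 starts), TCCCGC or GCGGGA stood in 5, and in 7 of 10 starts of the 8 members under 2-fold. The median CG ratio was 0.491 over those 9 starts and 0.872 over those 10. Single genes went both ways: Rnf212 (0.833) and Spata22 (0.849) were among the members over 2-fold, and Hormad2 (0.534) among those under. Whether CG content bears on the mark was not tested. A match is a description of the letters in this window and not a bound site.

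The marked members differed in how their surroundings looked. Flanking genes were taken from the RefSeq coordinates, and ratios here are log2 over the summed IgG at E12.5. Rad21l (1.61) lay between Snph (2.29) and Tmem74b (2.17), both of them higher than Rad21l itself, with Snph 11.8 kb away. Mei1 (chr15:82070074-82126817, 1.57) had 4930407I10Rik at 1.87 on one side and Ccdc134 at -0.19 on the other. Spata22 (1.10) had Trpv3 at 1.51 and Olfr20 at 0.75.

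Meioc (chr11:102665351-102682240, 1.25) stood between Fzd2 at -0.06 and Ccdc43 at -0.91. Rnf212 (chr5:108728105-108775067, 1.132) had Fgfrl1 at -0.23 and Tmed11 just under the threshold, and Prdm9 (chr17:15543072-15564374, 1.14) had Chd1 at -1.11 and Pdcd2 with too few reads. At Meioc and Prdm9 the high level was thus limited to the member among the flanking genes that could be tested, while at Rad21l both sides were high. In all, 4 of the 7 members over 2-fold had a flanking gene over 2-fold (Rad21l, Mei1, Spata22 and Syce3), against 5 of the 26 other members tested. Over all autosomal genes the same counts were 1406 of 2571 genes over 2-fold (54.7%) and 2906 of 15131 others (19.2%), so that the members' 57.1% and 19.2% were close to those of all genes. Among the 5 other members with such a flank, Smc1b was low (-1.62) although Upk3a, the next gene on one side, had 2.41, and Sycp1 (-0.53) adjoined Nr1h5 at 2.24. In all, 8 of the 35 members overlap another gene.

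**Figure D4:**
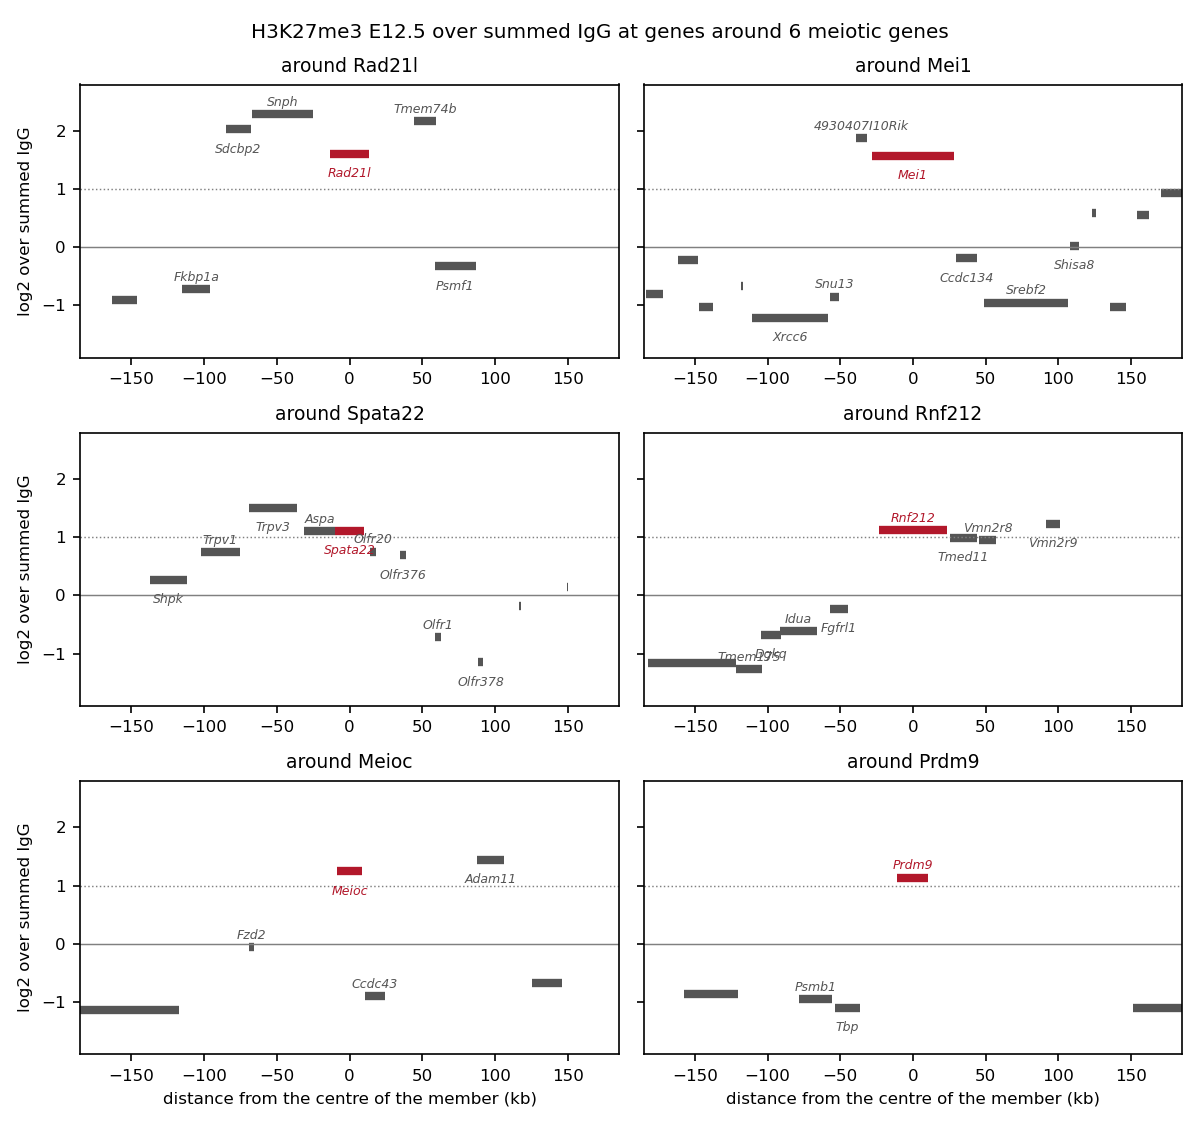
Log2 ratio of H3K27me3 E12.5 over the summed IgG for genes within 150 kb of 6 members (red, neighbours grey), each gene drawn as a bar over its span, by distance in kb from the member's centre, with a dotted line at 2-fold and names given for the nearer genes. Around Rad21l the nearest genes on both sides lie above 2, while Meioc and Prdm9 stand above their nearest neighbours.

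Between the stages the members hardly moved. In H3K27me3 E12.5 over H3K27me3 E11.5, 0 of 32 members were at least 2-fold higher (0.756% of all genes) and 0 were at least 2-fold lower (0.787%). The median log2 ratio was 0.03, against 0.01 over all genes, and the extremes were Rad51c at 0.68 and Msh5 at -0.72. Rad21l was at 0.03, Rnf212 at 0.04, Spata22 at 0.09, Mei1 at -0.13, Meioc at -0.23, Syce3 at -0.35 and Prdm9 at -0.53. Rnf212 and Spata22, whose calls over the IgG of the stage differ between stages, were thus nearly level between the H3K27me3 libraries, and Msh5 and Prdm9 were not. Between IgG libraries, Hormad1 and Spata22 were over 2-fold higher in IgG E13.5 than in IgG E12.5 (3.72% of all genes), 0 members were 2-fold lower (5.62%), and the median of the members was 0.33, against -0.12 over all genes.

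Reads on both parental alleles were counted apart, and the second-allele share is the second allele's part of a gene's reads, given with at least 10 reads. The sources do not say which strain is the second allele. Of the 7 members over 2-fold against the summed IgG, 4 had near-equal reads on both alleles: 53.4% and 50% second-allele reads for Rad21l in H3K27me3 at E12.5 and E11.5, 55.3% and 56.1% for Mei1, 50.6% and 52.6% for Meioc, and 52.2% at both stages for Rnf212. On each allele alone, H3K27me3 E12.5 exceeded the summed IgG of the same allele, with log2 ratios on the first and second allele of 1.36 and 1.87 for Rad21l, 1.44 and 1.68 for Mei1, 1.35 and 1.15 for Meioc, and 1.08 and 1.18 for Rnf212. Both copies of these 4 genes were thus over 2-fold. Prdm9 had 54.2% and 60.5% second-allele reads in H3K27me3 at E12.5 and E11.5, and 1.12 and 1.15 on the first and second allele at E12.5. Spata22 had 42.6% and 41.5%, with 1.26 on the first allele and 0.92, under 2-fold, on the second. For Syce3 the first allele held 3 and 1 reads in H3K27me3 at E12.5 and E11.5, too few for a ratio.

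At least 20 points toward the second allele were 2 of 33 members at E12.5 (5.33% of all genes) and 2 of 32 at E11.5 (5.69%), in both cases Majin and Syce3. Majin had 99.0% and 100% in H3K27me3 at E12.5 and E11.5, against 100%, 100% and 99.2% in IgG at E11.5, E12.5 and E13.5. Syce3 had 92.3% and 95.8% in H3K27me3 at E12.5 and E11.5, against 94.4% in IgG E13.5, the 1 IgG library with 10 reads or more. The shares of both genes were thus as one-sided without the H3K27me3 antibody.

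Toward the first allele by 20 points was 1 member at each stage, Ccnb1ip1 (2.62% of all genes at E12.5 and 3.54% at E11.5). Its share was 28.9% (exact 95% interval 19.1 to 40.5) and 30.2% in H3K27me3 at E12.5 and E11.5, against 36.4%, 40.0% and 44.7% in IgG at E11.5, E12.5 and E13.5. Both H3K27me3 shares were below every IgG share. The interval at E12.5 holds the shares of IgG E11.5 and E12.5 but not that of IgG E13.5, whose own interval was 34.9 to 54.8. Tex15 and Sycp2 kept under 20 points but leaned apart from IgG at both stages: 66.1% and 68.4% for Tex15 in H3K27me3 at E12.5 and E11.5, against 49.2%, 47.0% and 52.9% in IgG at E11.5, E12.5 and E13.5. For Sycp2 the shares were 39.1% and 36.7% in H3K27me3 at E12.5 and E11.5, against 58.2%, 51.0% and 46.5% in IgG at E11.5, E12.5 and E13.5. Both were picked out for these values, outside the rule for naming genes.

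**Figure D5:**
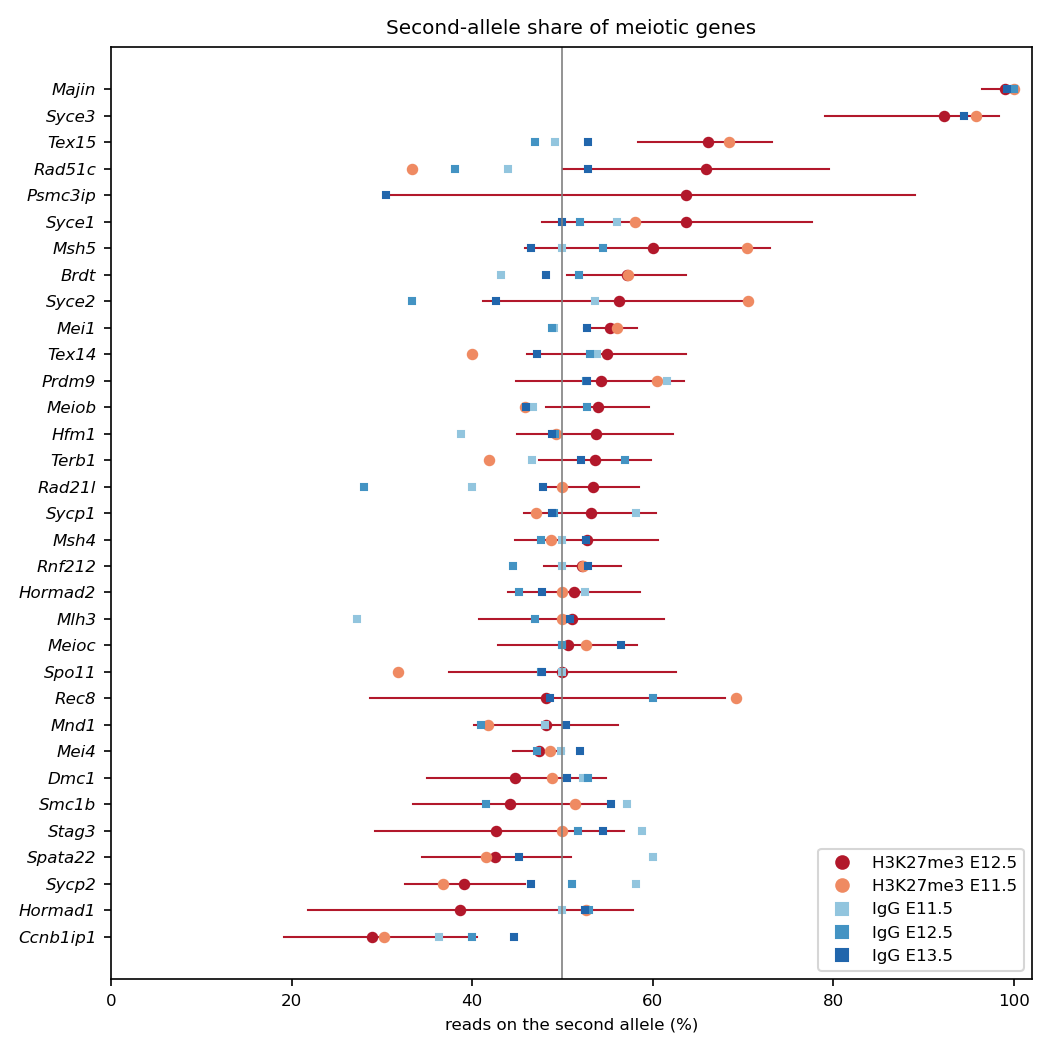
Percent of reads on the second allele for members with at least 10 reads in H3K27me3 E12.5, sorted by that share, in the H3K27me3 libraries (red circles, with the exact 95% interval at E12.5 as a line) and the IgG libraries (blue squares). Majin and Syce3 lie at the right edge in H3K27me3 and IgG alike, and Ccnb1ip1 is at the lowest share.

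Other genes of the meiotic programme, from a list of known genes outside the members, gave 4 of 31 tested over 2-fold at E12.5 (15.2% of all genes) and 13 lower (29.5% of all genes), with a median of -0.96. At E11.5 the list gave 4 of 28 over (17.2% of all genes) and 13 lower (29.7% of all genes), with a median of -0.94. Its share over 2-fold was thus near that of all genes. The share lower was above that of all genes at both stages. Both medians lay below those of all genes, -0.54 at E12.5 and -0.49 at E11.5. Ccdc155 and Hspa2, named next, are among the few that were over 2-fold. Ccdc155, which links telomeres to the cytoskeleton, was high at both stages (1.41 and 2.202 at E12.5 and E11.5) and over the summed IgG (2.14 and 2.49). Hspa2, a germ cell chaperone, had 1.21 and 1.56, from 2 reads in IgG E12.5 and 3 in IgG E11.5, and 1.17 and 1.98 over the summed IgG. Of the counterparts that act in mitotic and somatic cells, 0 of 17 tested were over 2-fold at either stage (15.2% and 17.2% of all genes). Of the same 17, 8 at E12.5 and 13 at E11.5 were at least 2-fold lower (29.5% and 29.7% of all genes). Their medians were -0.95 and -1.19 at E12.5 and E11.5. Within cohesin, Rad21, the somatic kleisin, had -1.005 and -1.03 at E12.5 and E11.5, where its meiotic relative Rad21l had 2.15 and 1.96.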

How the data were processed

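CUT&RUN reads of H3K27me3 (2 libraries) and IgG (3 libraries) in sorted primordial germ cells were used, 1 library per group. The deposited files hold allele-specific read counts (whole numbers) for each gene. They also hold a fraction, which the authors computed as the second allele's count over both (checked on the files), and which is printed here as a percent. The deposited counts are not normalised. Per the submitters' processing notes, the build was mm10 and the tools included Trim Galore 0.6.6, Bowtie2 2.4.2, SAMtools 1.11 and featureCounts. Nothing used here states how duplicates, strand and the assignment to alleles were handled. Reads without a strain variant carry no allele, so levels rest on an unknown part of each library and on how many variants a gene holds. That number is the same in every library, so ratios between libraries are comparable.

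Levels were reads of both alleles per 1000000 reads of chromosomes 1 to 19 (CPM), computed here from the deposited counts. Log2 ratios carried a pseudocount of 1 and needed at least 20 reads in the pair, which understates ratios of sparse genes. A gene was called at 2-fold over all autosomal genes. Folds, levels and shares have exact 95% intervals (binomial split, Poisson and Clopper-Pearson), and folds carried no pseudocount. Each number of reads sets the precision, and the median gene had 67 and 32 reads in H3K27me3 at E12.5 and E11.5, against 23, 28 and 91 in IgG at E11.5, E12.5 and E13.5. The computations used Python 3.11.15 with pandas 2.3.3 and SciPy 1.17.1, and TMM factors came from edgeR 4.0.16 in R 4.3.3. The ratio and interval steps were tested on simulated data. Alternatives were other pseudocounts, read minimums, thresholds, controls, scalings and single alleles.

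Members, gene lists and the rule for naming genes were chosen with earlier results of these data known. Values in every library are given for members over 2-fold at either stage, the 6 highest and 6 lowest at E12.5, those 20 points off the autosomal share, and the best-known genes of each role. Other genes are named only as neighbours or list examples. Coordinates and promoter sequences are from RefSeq, GRCm38.p6, the assembly that mm10 names.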

Additional observations from a re-analysis of the deposited data

Results flagged for a closer look

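Mei4 lay on opposite sides of IgG at both stages, with a log2 ratio of 0.56 over IgG E12.5 at E12.5 and -0.37 over IgG E11.5 at E11.5. Neither counting interval included 1. The levels were 243 CPM in H3K27me3 E12.5 and 198 in H3K27me3 E11.5, against 257, 165 and 312 in IgG at E11.5, E12.5 and E13.5. The difference between the stages was not tested, as each group had 1 library. Over the summed IgG the log2 ratios were -0.19 at E12.5 and -0.48 at E11.5.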

How the results depend on the processing

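No paired analysis was possible because each group had 1 library with a file, and for the same reason no replicate could be left out. No member called at 2-fold changed sign under an alternative, but the median over members did. At E12.5 over IgG E12.5 (-0.37) it was 0.17 with centring, 0.14 with TMM scaling and 0.12 with second-allele reads. At E11.5 over IgG E11.5 (-0.45) it was 0.04 with centring and 0.02 with TMM scaling, and between the stages (0.03) it was -0.08 with first-allele reads. Of the counts of members, 57 stayed within 1.5 times the reported count under an alternative and 31 did not. At E12.5 over IgG E12.5 (5 higher, 5 lower), a pseudocount of 4 gave 2 lower, a 1.5-fold threshold 8 higher and 14 lower, a 3-fold threshold 3 higher and 0 lower, IgG E13.5 as control 10 lower, the summed IgG 8 lower, centring on the median of all genes and TMM scaling each 10 higher and 0 lower, and first-allele reads 8 lower. At E11.5 over IgG E11.5 (7 higher, 10 lower), a pseudocount of 4 gave 4 higher, a 3-fold threshold 2 higher and 1 lower, centring 2 lower and TMM scaling 3 lower. Between the stages (0 and 0), a 1.5-fold threshold gave 1 higher and 1 lower, and second-allele reads 2 higher. For the shares (2 toward the second and 1 toward the first allele at both stages), a minimum of 50 reads left 1 toward the second allele at both stages and, at E11.5, 0 toward the first. A distance of 10 points gave 6 toward the second allele at both stages, with 3 and 6 toward the first at E12.5 and E11.5. Likewise 30 points gave 0 toward the first allele at both stages, and members within 20 points of 50% in IgG E13.5 gave 0 toward the second. The shares of all genes moved as well. With centring, 25.5% of all genes were higher and 4.71% lower at E12.5, and 24.8% and 7.38% at E11.5. TMM scaling gave 24.9% and 6.03% at E12.5, and 24.5% and 8.53% at E11.5. The shift of centring follows from its construction, and the cause of the other moves was not tested. Among single members, 98 values moved beyond their counting interval and 775 did not.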
